A study of Chlorocebus sabaeus with 4 samples.

Results

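Leptin, adiponectin, their receptors and 3 further adipokine systems were followed in corpus luteum RNA. The corpus luteum grows from the follicle after ovulation and secretes progesterone. The genes were chosen by name, as 5 ligands (LEP, ADIPOQ, NAMPT, RARRES2 and RETN) and 4 receptors (LEPR, ADIPOR1, ADIPOR2 and CMKLR1), out of 19775 genes with a probe set of their own. All 9 had at least 1 such probe set, 14 in all, and 6 further probe sets carried the names of LEPR and its neighbour LEPROT together. The samples came from 2 adult female vervet monkeys (Chlorocebus sabaeus), both 16 years old. Monkey 1031 was placed on calorie restriction and monkey 1030 was fed ad libitum. Each animal gave 2 samples, numbered 2 and 1, each read on 1 array. Per the labels, weight change was to be judged within each animal, against that animal's own other sample, and the order in which samples 1 and 2 were taken is not stated. With 1 animal a diet, diet and animal cannot be told apart, and the change inside an animal rests on 1 array against 1 array, without a test.

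Adipokines are secreted proteins best known from fat tissue. Leptin reports fat stores to the brain through LEPR, a cytokine receptor that works through JAK2 and STAT3. Adiponectin acts through ADIPOR1 and ADIPOR2, multi-pass membrane proteins linked to AMP-activated kinase, PPARA and fatty acid use. NAMPT, also called visfatin when it is found outside cells, makes the rate-limiting step of NAD salvage inside them. RARRES2 encodes chemerin, an attractant of immune cells that CMKLR1 binds, and RETN encodes resistin, which in humans comes mainly from macrophages and monocytes. Adiponectin receptors and chemerin have been studied in the ovary of other mammals as modulators of steroid synthesis.

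Values are log2 signals after robust multi-array averaging (RMA), in which 1 unit is 2-fold. The array's probes were designed on human sequence, so a low value can mean little RNA or a poor match to the vervet gene. Median log2 signal was 3.96 to 4.00 over the 4 samples. Sample 2 of the ad libitum animal stood apart, with 912 to 1031 of 9888 genes 2-fold from each other sample, against 122 to 333 among the other 3. The 9888 genes are those at or above the median level of 5.26, a gene being read from its brightest probe set. The tissue label was checked on 10 luteal cell markers, of which 9 passed that level. Those 9 had mean log2 signals of 10.03 in sample 2 and 9.22 in sample 1 of the calorie restriction animal, and of 7.78 in sample 2 and 10.83 in sample 1 of the ad libitum animal. In bulk tissue, fewer cells of a type and less RNA per cell cannot be told apart.

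Of the ligands, LEP and ADIPOQ lay near background, RETN lay just above it, and NAMPT and RARRES2 lay well above it. The files hold no detection calls, so background was read from 91 probe sets of 68 genes with little or no target in a female ovary, which were Y-linked or restricted to tissues such as lens, enamel or pancreas. The 95th percentile of their means over the 4 samples, 5.46, was taken as the threshold. Whether related genes add signal to these panel probe sets was not tested. LEP, with a mean of 3.44, fell at the 50.5th percentile of that panel. ADIPOQ, with a mean of 2.15, fell at the 16.5th percentile. The probe sets of LEP and ADIPOQ thus gave no more signal than those of genes the tissue should lack.

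RETN had a mean of 6.26, which was 0.80 above the threshold and close to the brightest panel probe set at 6.21. RARRES2 had a mean of 8.31, and NAMPT had 8.56 with its brightest probe set, both above every probe set of the panel. Among the receptors, ADIPOR2 (9.93) and ADIPOR1 (8.26) were also above the whole panel, whereas LEPR (2.49, from its 1 unshared probe set) lay near background. CMKLR1 had 3 probe sets that disagreed. Only 229121_at, at 5.55, passed the threshold, by 0.084, and 210659_at and 207652_s_at lay below it at 3.94 and 3.62. With the brightest panel probe set as the limit, CMKLR1 came near background too. These are levels of different probe sets and do not rank the genes against each other.

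**Figure D1:**
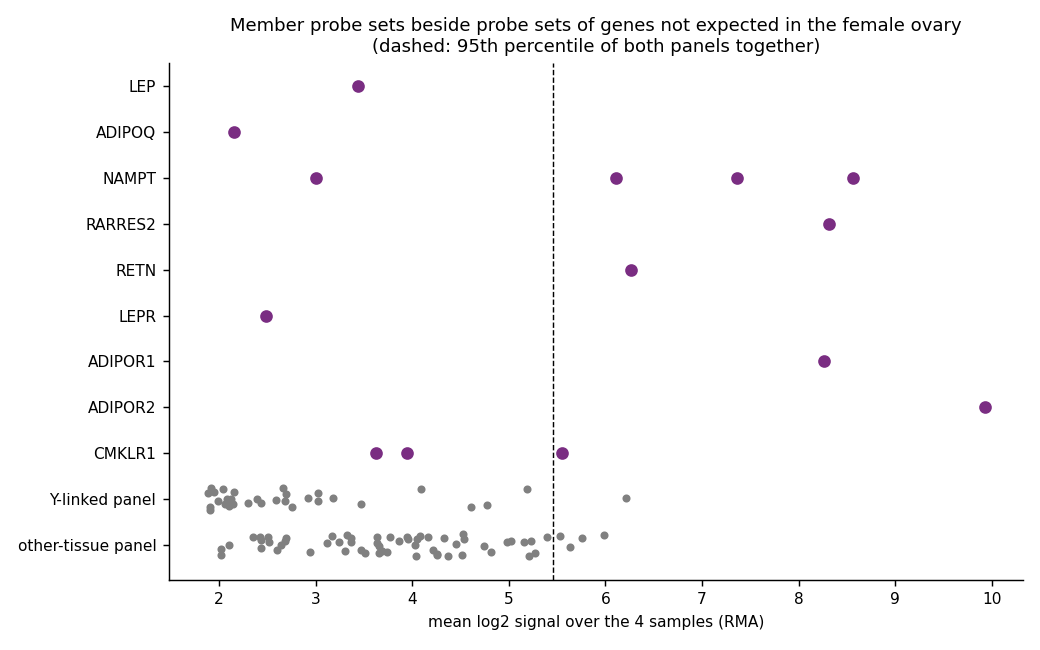
Mean log2 signal over the 4 samples (horizontal axis) of the 14 probe sets of the 9 genes (purple points, 1 row a gene) above those of the Y-linked and other-tissue background panels (grey points, spread vertically for legibility). The dashed line is the threshold of 5.46. LEP, ADIPOQ and LEPR lie left of it and CMKLR1 straddles it. ADIPOR1, ADIPOR2, RARRES2 and, narrowly, RETN lie right of all panel points.

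NAMPT had the largest change within an animal among these genes. Its brightest probe set, 217739_s_at, read 8.995 in sample 2 and 8.51 in sample 1 of the calorie restriction animal, and 7.32 in sample 2 and 9.43 in sample 1 of the ad libitum animal. Sample 2 of the ad libitum animal was the lowest of the 4 and sample 1 of the same animal the highest, so the animals overlapped. NAMPT was 0.49 higher in sample 2 of the calorie restriction animal, and 4.29-fold lower in sample 2 of the ad libitum animal (log2 change -2.10), the 120th largest decrease among 9888 genes. Sample 1 of the ad libitum animal lay 0.43 above sample 2 of the calorie restriction animal, less than the 0.49 between the samples of the calorie restriction animal, and the lowest sample lay 1.18 below the next.

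The other NAMPT probe sets gave the same pair of directions. Probe set 217738_at read 7.84 in sample 2 and 7.36 in sample 1 of the calorie restriction animal, and 6.197 in sample 2 and 8.07 in sample 1 of the ad libitum animal. Probe set 1555167_s_at read 6.42 in sample 2 and 5.92 in sample 1 of the calorie restriction animal, and 4.93 in sample 2 and 7.18 in sample 1 of the ad libitum animal. Their changes in the calorie restriction animal were 0.49 for 217738_at and 0.51 for 1555167_s_at. In the ad libitum animal 217738_at changed by -1.87, and 1555167_s_at, which lay below the background threshold in sample 2, was at least 3.30-fold lower there, taking the threshold as its level. The remaining probe set, 243296_at, lay near background, at 3.05 in sample 2 and 2.72 in sample 1 of the calorie restriction animal, and at 2.70 in sample 2 and 3.57 in sample 1 of the ad libitum animal. All 4 read lower in sample 2 of the ad libitum animal and higher in sample 2 of the calorie restriction animal. These probe sets read 1 gene in the same RNA and are not replicates of the samples.

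ADIPOR2 followed the same order of directions with a smaller size. It read 10.44 in sample 2 and 10.04 in sample 1 of the calorie restriction animal, and 8.91 in sample 2 and 10.32 in sample 1 of the ad libitum animal. Sample 1 of the ad libitum animal lay between the samples of the calorie restriction animal, which were 0.40 apart, and sample 2 of the ad libitum animal was again the lowest, 1.13 below the next. ADIPOR2 was 1.32-fold higher in sample 2 of the calorie restriction animal (log2 change 0.40), and 2.66-fold lower in sample 2 of the ad libitum animal (-1.41), the 316th largest decrease.

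ADIPOR1, the related receptor, stayed under 2-fold in both animals. It read 8.30 in sample 2 and 8.33 in sample 1 of the calorie restriction animal, and 7.89 in sample 2 and 8.52 in sample 1 of the ad libitum animal. The samples of the calorie restriction animal were nearly alike (change -0.024), and those of the ad libitum animal differed by -0.63, with sample 2 again the lowest of all. Each receptor was read by 1 probe set, so the smaller change of ADIPOR1 has no check by a further probe set.

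RARRES2 ran the other way from NAMPT and ADIPOR2 in the ad libitum animal. It read 7.88 in sample 2 and 7.62 in sample 1 of the calorie restriction animal, and 9.35 in sample 2 and 8.39 in sample 1 of the ad libitum animal. Both samples of the ad libitum animal lay above both samples of the calorie restriction animal, and sample 2 was the highest. The change in the ad libitum animal was 0.96 (1.94-fold), just under 2-fold and the 297th largest increase, and it came to 1.02 after cyclic loess and 1.07 after repeated quantile normalisation, both past 2-fold. In the calorie restriction animal it was 0.26.

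CMKLR1, the chemerin receptor, and RETN changed little. With probe set 229121_at CMKLR1 read 5.78 in sample 2 and 5.46 in sample 1 of the calorie restriction animal, and 5.27 in sample 2 and 5.67 in sample 1 of the ad libitum animal. Sample 1 of the calorie restriction animal and sample 2 of the ad libitum animal lay at or below the threshold, so its measured changes of 0.32 in the calorie restriction animal and -0.39 in the ad libitum animal are no exact sizes. The dimmer probe set 210659_at, below the threshold in every sample, did not run the same way, at 3.94 in sample 2 and 4.10 in sample 1 of the calorie restriction animal, and 4.01 in sample 2 and 3.72 in sample 1 of the ad libitum animal. RETN read 6.43 in sample 2 and 6.30 in sample 1 of the calorie restriction animal, and 6.38 in sample 2 and 5.94 in sample 1 of the ad libitum animal, so that sample 2 was the higher in both animals, by 0.13 and 0.44.

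Near background, the values of LEP, ADIPOQ and LEPR are not read as changes in RNA. LEP read 3.42 in sample 2 and 3.56 in sample 1 of the calorie restriction animal, and 3.41 in sample 2 and 3.37 in sample 1 of the ad libitum animal. ADIPOQ spanned 2.10 to 2.20 and the unshared LEPR probe set 2.37 to 2.75 over the 4 samples.

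**Figure D2:**
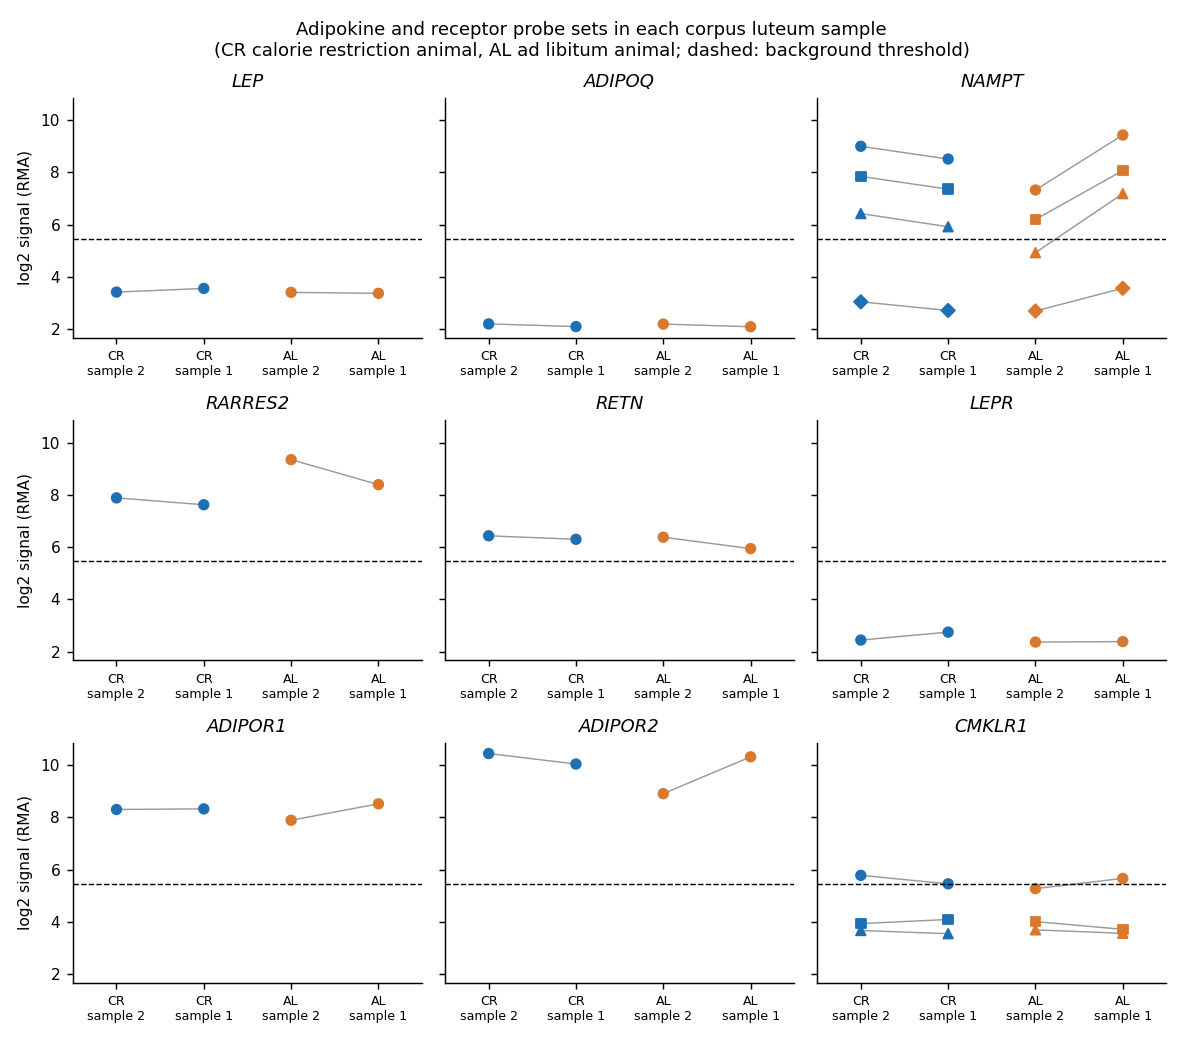
Log2 signal (vertical axis) of the 14 unshared probe sets in the 4 samples, 1 panel a gene; blue points are the calorie restriction animal (CR), orange points the ad libitum animal (AL), lines join the samples of 1 animal and marker shapes tell probe sets of 1 gene apart. The dashed line is the background threshold of 5.46; NAMPT and ADIPOR2 are lowest in sample 2 of the ad libitum animal, where RARRES2 is highest.

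The change within each animal compares the samples between which, per the labels, weight change was to be judged. Weights did not enter it, and with the sample order not stated, its sign cannot be tied to weight gain or loss. In the calorie restriction animal none of the 6 genes past the level filter was 2-fold apart, where 1.23% of all 9888 genes were (0.496% higher and 0.738% lower). In the ad libitum animal 2 of the 6, NAMPT and ADIPOR2, were 2-fold lower in sample 2 and none was 2-fold higher, where 9.25% of all genes were 2-fold apart (6.58% lower and 2.67% higher). The median change of the 6 was 0.29 in the calorie restriction animal and -0.51 in the ad libitum animal, against -0.026 and -0.013 over all genes. With 6 genes, a share is given as a description.

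The changes of NAMPT, ADIPOR2 and CMKLR1 had opposite signs in the 2 animals, as did those of 57.4% of all genes. Taken as calorie restriction minus ad libitum, the difference between the changes was 2.59 for NAMPT, the 98th highest of 9888, and 1.81 for ADIPOR2, the 232nd. It was 0.72 for CMKLR1, 0.60 for ADIPOR1, -0.30 for RETN and -0.69 for RARRES2. Of all genes, 14.0% had a difference of 2-fold or more either way. The 4 arrays leave nothing over to estimate an error for this quantity, so it was not tested.

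**Figure D3:**
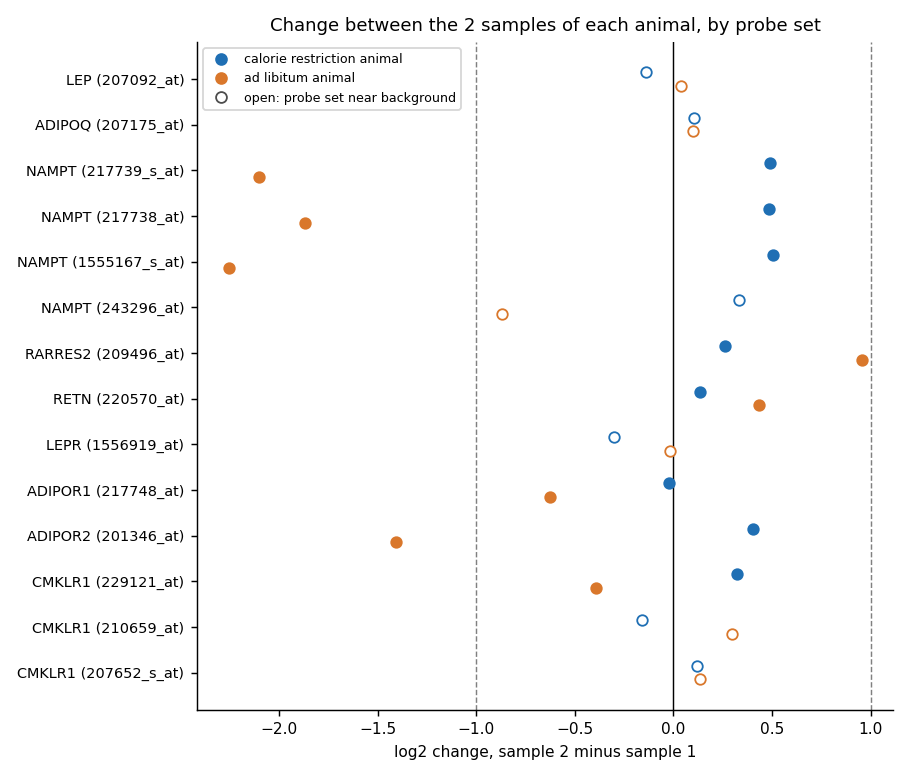
Log2 change from sample 2 minus sample 1 (horizontal axis) of each unshared probe set in the calorie restriction animal (blue) and in the ad libitum animal (orange); open points are probe sets near background and dashed lines mark 2-fold. The 3 brighter NAMPT probe sets lie between 0.49 and 0.51 in the calorie restriction animal, and the 2 of them above background in every sample lie at -2.10 and -1.87 in the ad libitum animal. The orange point of 1555167_s_at is a measured difference and no exact change, since sample 2 lay below the background threshold.

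The difference between the calorie restriction and the ad libitum animal asks which genes separated the animals whatever the sample number. No gene of the group passed limma's test with Benjamini-Hochberg adjustment at 0.05, and 0 of the 9888 genes tested did (0%), although 522 had an unadjusted p under 0.05. These p-values take their error from samples taken within the same 2 animals and say nothing of how animals vary. RARRES2 had the largest difference of the group, with means of 7.75 ± 0.19 in the calorie restriction animal and 8.87 ± 0.68 in the ad libitum animal (SD, n = 2 samples each). Its log2 difference was -1.12 with a standard error of 0.37, a 95% interval of -2.07 to -0.16 and an adjusted p of 0.88 (limma). It was the only gene of the 6 whose samples did not overlap between animals, as 35.3% of all genes did not.

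The RARRES2 call turned on a single sample. Without sample 1 of the ad libitum animal the difference was -1.59 with a limma adjusted p of 0.033, in a fit that called 474 genes (4.79%) and assumes that the lone sample varies like the pair from the other animal. Without sample 2 of the ad libitum animal it was -0.64, with a limma adjusted p of 0.56.

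The other genes differed less between the animals than the 2 samples of the ad libitum animal did. ADIPOR2 averaged 10.24 ± 0.28 in the calorie restriction animal and 9.61 ± 1.00 in the ad libitum animal (SD, n = 2 each), a difference of 0.63 with a 95% interval of -0.69 to 1.94 and a limma adjusted p of 0.93. NAMPT averaged 8.75 ± 0.34 in the calorie restriction animal and 8.38 ± 1.49 in the ad libitum animal (SD, n = 2 each), a difference of 0.38 with a 95% interval of -1.49 to 2.24 and a limma adjusted p of 0.97. The direction of both rested on sample 2 of the ad libitum animal, since without it the differences were -0.075 for ADIPOR2 and -0.67 for NAMPT (limma adjusted p 0.96 and 0.64). Without sample 1 of that animal they were 1.33 and 1.43 (limma adjusted p 0.059 and 0.062).

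ADIPOR1 differed by 0.11 (95% interval -0.60 to 0.82), CMKLR1 by 0.15 (-0.42 to 0.72) and RETN by 0.21 (-0.35 to 0.76), all with limma adjusted p between 0.94 and 0.97. Each of these intervals takes in 0 and reaches past 1.5-fold higher in the calorie restriction animal, so a moderate difference was not detectable with 4 arrays. Without sample 2 of the ad libitum animal the differences of ADIPOR1 and CMKLR1 turned to -0.21 and -0.045, and without its sample 1 that of RETN turned to -0.013.

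The leptin receptor could be read only in part. In humans LEPR and LEPROT, which encodes a small membrane protein of receptor traffic, share a promoter and their first exons, and 6 probe sets on this array were annotated to both. Of these, 5 lay near background in every sample, between 2.06 and 3.28. Probe set 209894_at read 3.92 in sample 2 and 4.43 in sample 1 of the calorie restriction animal, and 6.27 in sample 2 and 6.61 in sample 1 of the ad libitum animal. Both samples of the ad libitum animal were above the background threshold and both of the calorie restriction animal below it. The animals thus did not overlap, as in 35.3% of the 9888 genes, a share that was not counted over all probe sets.

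With the threshold taken as the level of the calorie restriction animal, 209894_at was at least 1.97-fold lower there than in the ad libitum animal, whose samples were -0.35 apart. Fitted among all 54613 probe sets that were no controls, its limma adjusted p was 0.27, and 0 probe sets passed (0%), with 2884 at an unadjusted p under 0.05. Without sample 1 of the ad libitum animal the limma adjusted p was 0.037, in a fit that called 663 probe sets (1.21%). It was 0.13 without sample 2 of that animal and 1 without either sample of the calorie restriction animal. On leaving out each sample in turn the difference kept its direction, and it passed the adjusted threshold only without sample 1 of the ad libitum animal.

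LEPROT had 4 probe sets of its own. The brightest read 7.87 in sample 2 and 7.98 in sample 1 of the calorie restriction animal, and 7.87 in sample 2 and 8.19 in sample 1 of the ad libitum animal, a difference of -0.099. The next read 7.10 in sample 2 and 7.49 in sample 1 of the calorie restriction animal, and 6.81 in sample 2 and 7.12 in sample 1 of the ad libitum animal, a difference of 0.33. All 4 had limma adjusted p between 0.91 and 0.97 among the probe sets with 1 gene symbol. Near background, the shared 211356_x_at and 211355_x_at read 2.53 to 2.77 in the calorie restriction animal and 3.06 to 3.28 in the ad libitum animal. The shared 1556997_a_at and the unshared LEPR probe set 1556919_at did not overlap either, but ran the other way. In the calorie restriction animal 1556997_a_at read 2.20 and 2.38, and 1556919_at 2.45 and 2.75. In the ad libitum animal they read 2.11 and 2.06, and 2.37 and 2.39. At this level none of these is read as a change in RNA. Which transcript 209894_at reads in vervet, and whether the animals carry different alleles under its probes, was not analysed here.

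**Figure D4:**
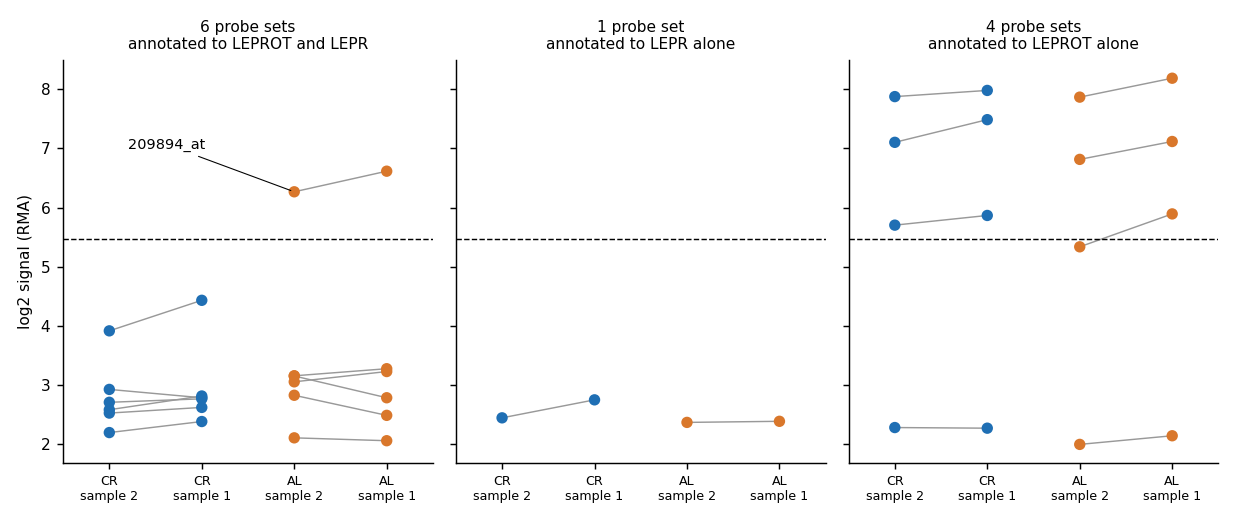
Log2 signal (vertical axis) in the 4 samples of probe sets annotated to LEPROT and LEPR together (left), to LEPR alone (middle) and to LEPROT alone (right), with blue points for the calorie restriction animal (CR), orange points for the ad libitum animal (AL) and the background threshold dashed. Probe set 209894_at lies at 3.92 and 4.43 in the calorie restriction animal, below the threshold, and at 6.27 and 6.61 in the ad libitum animal, above it.

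Genes that act after these receptors were read from fixed lists, and no gene of any list passed limma's adjusted threshold between the animals. Of 12 leptin signalling genes, all past the level filter, SOCS3, the feedback inhibitor that leptin induces, was the only one 2-fold apart. It read 6.63 in sample 2 and 7.25 in sample 1 of the calorie restriction animal, and 4.73 in sample 2 and 6.86 in sample 1 of the ad libitum animal. Its change in the calorie restriction animal was -0.62, and in the ad libitum animal sample 2, below the background threshold, was at least 2.64-fold lower, taking the threshold as its level. The list's median change was -0.099 in the calorie restriction animal and -0.26 in the ad libitum animal. JAK2 (0.054 and -0.19) and STAT3 (-0.26 and -0.63), the kinase and transcription factor of the receptor, stayed under 2-fold in both.

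Of 8 adiponectin signalling genes past the filter, 1 was 2-fold lower in sample 2 of the ad libitum animal and none was 2-fold apart in the calorie restriction animal. This was APPL2, a relative of the receptor adaptor APPL1, with changes of -0.38 in the calorie restriction animal and -1.05 in the ad libitum animal. APPL1 changed by -0.15 and -0.078, and the kinase subunit PRKAA1 by 0.11 and -0.74. The list's medians were -0.071 in the calorie restriction animal and -0.23 in the ad libitum animal. CDH13, also on the list, had no probe set of its own and was not read.

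NAMPT's partners in NAD metabolism did not follow its size. Of 8 genes of NAD salvage and NAD use past the filter, none was 2-fold apart in either animal, with medians of 0.058 in the calorie restriction animal and 0.16 in the ad libitum animal. The nicotinate enzyme NAPRT changed by 0.092 and 0.59, and the NAD-using deacetylase SIRT1 by -0.74 and -0.16. Of the 8 genes, 4 were lower in sample 2 of the ad libitum animal, as NAMPT was, and the others were higher. Among the lower ones, NADK changed by 0.024 in the calorie restriction animal and -0.74 in the ad libitum animal, and NMRK1 by -0.11 and -0.60. The enzymes NMNAT1, NMNAT2 and NMNAT3, which take NAMPT's product to NAD, lay near background.

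Of 9 measured partners of chemerin and resistin, all lay near background and only CMKLR2, a further chemerin receptor, passed the level filter. It read 5.25 in sample 2 and 5.42 in sample 1 of the calorie restriction animal, and 5.59 in sample 2 and 5.34 in sample 1 of the ad libitum animal. The resistin partner CAP1, also on that list, had no probe set of its own and was not read. Among 7 other adipokines past the filter, 2 were 2-fold lower in sample 2 of the ad libitum animal and none was 2-fold apart in the calorie restriction animal. NUCB2, the precursor of nesfatin-1, read 8.87 in sample 2 and 8.33 in sample 1 of the calorie restriction animal, and 7.92 in sample 2 and 9.49 in sample 1 of the ad libitum animal. C1QTNF1, a paralogue of adiponectin, had changes of 0.44 in the calorie restriction animal and -1.56 in the ad libitum animal. Both were lowest in sample 2 of the ad libitum animal, as NAMPT and ADIPOR2 were.

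Markers of luteal steroid-making cells moved with NAMPT and ADIPOR2. Of 9 past the filter, 8 were 2-fold lower in sample 2 of the ad libitum animal and 4 were 2-fold higher in sample 2 of the calorie restriction animal, with medians of 0.77 in the calorie restriction animal and -3.49 in the ad libitum animal. STAR, the cholesterol carrier of steroid synthesis, had changes of 1.03 and -3.49, CYP11A1, the side-chain cleavage enzyme, of 0.77 and -2.19, and HSD3B2, which turns pregnenolone into progesterone, of 1.36 and -3.91. Endothelial markers were lower in sample 2 of the ad libitum animal as well, 5 of 10 by 2-fold, with medians of -0.36 in the calorie restriction animal and -0.97 in the ad libitum animal. The part of these cells in the NAMPT and ADIPOR2 values was not tested.

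Fat cells were looked for because the ligands are best known from them. Of 11 measured adipocyte markers, 7 lay near background, among them PLIN1, CIDEA, CIDEC and LIPE, and 4 passed the filter. Those 4, of which none was 2-fold apart in the calorie restriction animal and 2 were 2-fold higher in sample 2 of the ad libitum animal, averaged 5.96 in sample 2 and 5.996 in sample 1 of the calorie restriction animal, and 7.17 in sample 2 and 6.44 in sample 1 of the ad libitum animal. The 2 were FABP4, a fatty acid carrier, and PPARG, the adipogenic nuclear receptor. FABP4 read 4.64 in sample 2 and 4.70 in sample 1 of the calorie restriction animal, against 7.53 in sample 2 and 6.22 in sample 1 of the ad libitum animal. PPARG read 7.88 in sample 2 and 8.02 in sample 1 of the calorie restriction animal, against 9.35 in sample 2 and 8.33 in sample 1 of the ad libitum animal. As with RARRES2, both samples of the ad libitum animal lay above both of the calorie restriction animal for FABP4 and PPARG. Such a lack of overlap was seen in 35.3% of all genes. Sample 2 of the ad libitum animal was the highest for both, and FABP4 lay below the background threshold in the calorie restriction animal. LPL and TRARG1, also past the filter, overlapped between the animals, with differences of -0.094 and -0.13. LEP and ADIPOQ stayed near background.

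The combined smooth muscle and pericyte list held changes in both directions. Smooth muscle and pericyte markers past the filter, 9 of 10, had 1 gene 2-fold higher in sample 2 of the calorie restriction animal, and 1 higher and 2 lower in sample 2 of the ad libitum animal. They averaged 8.53 in sample 2 and 8.28 in sample 1 of the calorie restriction animal, and 8.81 in sample 2 and 8.78 in sample 1 of the ad libitum animal. MYH11, the smooth muscle myosin, read 9.16 in sample 2 and 8.98 in sample 1 of the calorie restriction animal, and 10.71 in sample 2 and 9.70 in sample 1 of the ad libitum animal, the order of RARRES2. The smooth muscle genes ACTA2, TAGLN, CNN1 and DES had that order too, with ad libitum changes of 0.37, 0.25, 0.76 and 0.78. They were named after their values were seen. In 35.3% of all genes the animals did not overlap, and the share with this full order was not counted. The pericyte markers RGS5 and MCAM ran the other way in the ad libitum animal. RGS5 changed by -0.43 in the calorie restriction animal and -1.20 in the ad libitum animal, and MCAM by 0.25 and -1.11. PDGFRB and NOTCH3, also on the list, changed by -0.29 and -0.32 in the ad libitum animal. The gene 2-fold higher in the calorie restriction animal was TAGLN, an actin-binding protein of smooth muscle, with changes of 1.11 in that animal and 0.25 in the ad libitum animal.

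Fibroblast markers past the filter, 7 of 8, had no gene 2-fold apart in the calorie restriction animal, and 1 higher and 1 lower in sample 2 of the ad libitum animal. FBLN1, an extracellular matrix protein, read 5.20 in sample 2 and 5.21 in sample 1 of the calorie restriction animal, both below the background threshold, and 7.85 in sample 2 and 6.63 in sample 1 of the ad libitum animal, again the order of RARRES2 in the ad libitum animal. THY1, a surface protein of fibroblasts, had changes of -0.0022 in the calorie restriction animal and -1.73 in the ad libitum animal. The list averaged 10.76 in sample 2 and 10.57 in sample 1 of the calorie restriction animal, and 10.70 in sample 2 and 11.07 in sample 1 of the ad libitum animal. The part of fat, muscle or stromal cells in the RARRES2 values was not tested.

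Immune markers were read because RETN and CMKLR1 are known from such cells. Macrophage markers past the filter, 7 of 8, had no gene 2-fold apart in the calorie restriction animal, and 1 higher and 1 lower in sample 2 of the ad libitum animal. The scavenger receptor CD163 had changes of -0.063 in the calorie restriction animal and -1.28 in the ad libitum animal, and AIF1, a calcium-binding protein of macrophages, of 0.22 and 1.23. The list averaged 7.87 in sample 2 and 7.95 in sample 1 of the calorie restriction animal, and 7.28 in sample 2 and 7.33 in sample 1 of the ad libitum animal. Of 9 neutrophil markers 8 lay near background, among them S100A8, S100A9 and S100A12, and MNDA was the exception. The macrophage averages were higher in the calorie restriction animal, and their part in the RETN and CMKLR1 values was not tested.

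**Figure D5:**
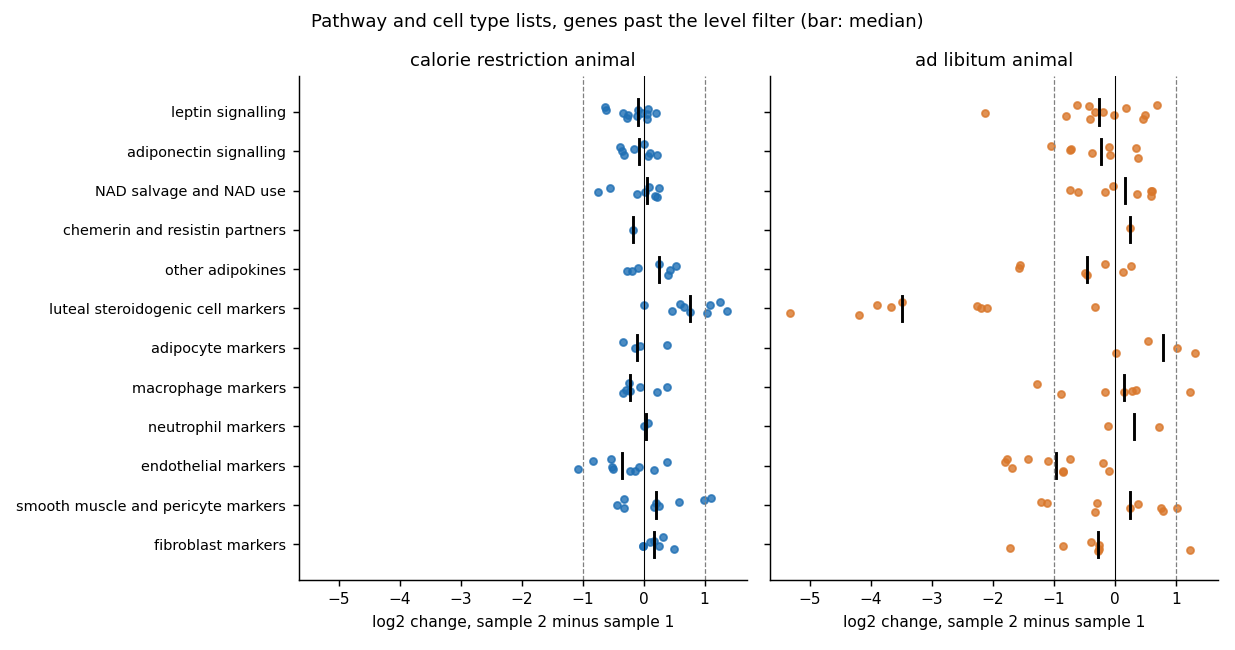
Log2 change, sample 2 minus sample 1 (horizontal axis), of the genes past the level filter in each pathway or cell type list, in the calorie restriction animal (left, blue) and the ad libitum animal (right, orange); 1 point a gene, black bars are medians and dashed lines mark 2-fold. The luteal cell markers have the medians farthest from 0, 0.77 on the left and -3.49 on the right, and the pathway lists of leptin, adiponectin and NAD have medians between -0.26 and 0.16.

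The genes most like each member were found as those with the smallest root mean square difference of their 4 centred log2 values, for the 3 members that spanned 2-fold or more. For NAMPT these were EDEM2 (0.053), SLC35F5 (0.080) and BBLN (0.083). For ADIPOR2 they were TRIL (0.044), PCOLCE (0.048) and CD300LG (0.056), and for RARRES2 they were NUPR1 (0.038), MYH11 (0.038) and FZD7 (0.071). With 4 values and 9888 genes such near matches are a description of these arrays.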

How the data were processed

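Biotin-labelled cRNA from total RNA of frozen corpus luteum was hybridised, as the labels' protocols state, with 1 array for each sample. The deposited values are log2 probe set signals that the authors made with Affymetrix Power Tools and RMA, per the submitters' processing notes. Their versions are not given in these sources. RMA sets all arrays to 1 distribution, so a change common to most genes is removed. Precision is limited by the number of arrays.

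Of 54675 probe sets, 62 controls were left out, 41091 had 1 gene symbol in the platform annotation, 1801 several and 11721 none. A gene was its brightest probe set with 1 symbol, and probe sets with several symbols were described apart. All 9 genes have a symbol in the vervet RefSeq annotation (assembly mChlSab1.0.hap1). Coordinates are left out because the arrays have no genome build. A change within an animal is sample 2 minus sample 1, with 2-fold as a rule of size. Calorie restriction minus ad libitum was tested with limma 3.58.1 (lmFit, eBayes with trend, Benjamini-Hochberg) in R 4.3.3 over the 9888 genes past the level filter, with 2 residual degrees of freedom. It was tried on simulated data over 9888 genes, with normal errors and each gene's spread pooled over both animals. It called 3 of 67 planted log2 differences of 1, 41 of 67 of 2 and 45 of 66 of 3, with 4 false calls. The simulated animals had the same spread. In the data, 122 genes were 2-fold apart in the calorie restriction animal and 915 in the ad libitum animal, so these figures need not hold there.

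The members, lists, background panel and tests were chosen with earlier results of these data known. The rule for named genes took all 9 members, pathway list genes 2-fold apart in either animal (up to 4 a list), 3 genes most like each member that spanned 2-fold, and STAR, CYP11A1 and HSD3B2. Other list genes with values, such as JAK2, SIRT1 and the cell type markers other than STAR, CYP11A1, HSD3B2 and MYH11, were named after their values were seen. Where 1 side lay below the background threshold, a fold is given as a bound against that threshold. Same-numbered samples of the animals did not deviate together (Pearson r of -0.27 across 9888 genes, which are not independent). This cannot decide whether the sample number pairs the animals, since opposite changes in paired samples would also give a negative value. The main test assumed no pairing.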

Additional observations from a re-analysis of the deposited data

Results flagged for a closer look

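NAMPT and ADIPOR2 moved in opposite directions in the 2 animals, by 0.49 in the calorie restriction animal and -2.10 in the ad libitum animal for NAMPT, and by 0.40 and -1.41 for ADIPOR2. Each animal gave a single change, and the difference between the changes was not tested. In the calorie restriction animal neither reached 2-fold.

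Probe set 209894_at, which carries the names of both LEPROT and LEPR and so belongs to neither gene's own values, read 6.27 in sample 2 and 6.61 in sample 1 of the ad libitum animal, above the background threshold of 5.46. Both samples of the calorie restriction animal were below that threshold, at 3.92 and 4.43.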

How the results depend on the processing

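Some of the alternatives could not move some member values. Other level filters and the use of every probe set of 1 symbol leave a member's change within an animal as it is. Averaging probe sets leaves the values of a gene with 1 probe set as they are. Of 207 member values recomputed under the alternatives, 202 kept their side of the 2-fold rule or of the adjusted threshold, a count fixed in part by this. The other 5 were RARRES2 in the ad libitum animal after cyclic loess, after repeated quantile normalisation and at 1.5-fold, ADIPOR1 there at 1.5-fold, and RARRES2 between animals without the ad libitum sample 1. Under the first 3 of these the number of members past the threshold and higher in that animal's sample 2 became 1. NAMPT's change in the ad libitum animal ran from -2.10 to -1.77, its change in the calorie restriction animal from 0.45 to 0.52, and ADIPOR2's from -1.41 to -1.27 and from 0.40 to 0.43. CMKLR1, averaged over its probe sets, changed by 0.013 in the ad libitum animal.

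The number of features 2-fold apart in the calorie restriction and the ad libitum animal was 122 and 915, and came to 80 and 593 when probe sets of a gene were averaged, 59 and 546 with the level filter at the 75th percentile (fewer genes tested), 234 and 1910 with every probe set of 1 symbol (more features tested), and 588 and 2448 at 1.5-fold. Genes whose changes differed by 2-fold numbered 1387, and 855 when probe sets were averaged; the cause was not tested.

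Between the animals limma called 0 genes under every alternative that kept all 4 samples, and 0 to 474 on leaving out each sample in turn, the 474 without sample 1 of the ad libitum animal. With sample number as a replicate block limma called 0 genes (506 at an unadjusted p under 0.05), so the block changed no call. With crossed sample numbers limma called 0 (809 at an unadjusted p under 0.05), a setting added after seeing the data, as were the fit over every probe set and the leave-outs for background. LEP, LEPR and ADIPOQ were near background under all 9 alternatives, and CMKLR1 joined them with the brightest panel probe set as the limit.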

Other observations

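LCN2, the adipokine lipocalin-2, which was picked out after its values were seen, lay near background by its mean but read 6.10 in sample 1 of the ad libitum animal, against 4.47 in sample 2 of that animal, and 4.36 in sample 2 and 4.31 in sample 1 of the calorie restriction animal. IRS2, an adaptor of insulin and leptin signalling, also picked out after its values were seen, changed by -0.63 in the calorie restriction animal and 0.68 in the ad libitum animal, opposite to the signs of NAMPT and ADIPOR2.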
